A study of Mus musculus with 16 samples.

Results

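The 9 genes described here are the major histocompatibility complex (MHC) class II genes Cd74, H2-Aa, H2-Ab1, H2-Eb1 and H2-DMa, their transcriptional coactivator Ciita, and the macrophage and leukocyte genes Csf1r, Cd68 and Ptprc. They were taken by symbol from a table of 31274 features, each symbol was found, and all 9 passed the filter on low values. RNA-seq had been carried out on whole mouse uteri, with 4 libraries in each of 4 groups and 16 libraries in all. PRB denotes PgrcrePgrBLsL/+ mice and PRA denotes PgrcrePgrALsL/+ mice, in which Pgr-Cre acts on a transgene of progesterone receptor isoform B or isoform A. The groups were PRB mice given progesterone (P4), PRB mice given oil, PRA mice given P4 and PRA mice given oil, each for 6 h. Every mouse had been ovariectomized for 2 weeks, and every mouse carried both Pgr-Cre and a transgene. Per the labels, females were housed with littermates until 8 weeks of age. The numbers in the titles are called bioreplicates, with no word on litters or on pooling of animals.

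Several features limit these groups as a model. Pgr-Cre acts in cells that express Pgr, and the sample labels do not say which cells of the uterus carried the transgene. Mice that lack a transgene are not part of these groups, and the comparisons are PRB with PRA and P4 with oil. One protocol field speaks of mated females taken on day 4 of pregnancy, which goes against the ovariectomy and 6 h treatment given by the titles, the sample characteristics and the design text. The groups follow those 3 sources. Library positions in the labels run in row B for PRB and row A for PRA, with oil before P4 in each row, so position cannot be told apart from strain or treatment. All 16 libraries carry the same run date.

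MHC class II molecules are pairs of an alpha and a beta chain on the cell surface that present peptides from ingested proteins to CD4+ T cells. The invariant chain Cd74 escorts the new pair to the endosome, where cathepsins trim it and H2-DM exchanges its remnant for a peptide. In macrophages, dendritic cells and B cells the genes are switched on together by Ciita, a coactivator that does not bind DNA itself and is induced by interferon gamma. In the uterus macrophages and dendritic cells are known to change in number and place with the ovarian hormones. Csf1r is the receptor for CSF1, the growth factor of macrophages, Cd68 is a lysosomal protein abundant in macrophages, and Ptprc is CD45, carried by nearly all leukocytes.

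Levels are given as FPKM, fragment numbers divided by transcript length and by library depth, so that they can be compared between genes. The libraries summed to 499748 to 595748 FPKM. The sum averaged 588254 ± 7368 FPKM in PRB P4, 515035 ± 5413 FPKM in PRB oil, 583022 ± 10099 FPKM in PRA P4 and 516178 ± 14040 FPKM in PRA oil (SD, n = 4 each), so the total moved with treatment, and the sources do not say whether libraries were scaled to each other. The spacing of low values implied 52.9 to 63.4 M fragments in each. On that estimate, and with the longest coding transcript of each gene, the smallest value of any of the 9 genes rested on 669 fragments. Pgr, which sums the endogenous gene and any transgene reads, averaged 112 ± 22.3 FPKM in PRB P4, 83.5 ± 4.49 FPKM in PRB oil, 73.9 ± 1.80 FPKM in PRA P4 and 64.9 ± 5.52 FPKM in PRA oil (SD, n = 4 each). PRB P4 replicate 3 stood apart from the other 3 libraries of its group in leukocyte genes and in Pgr (78.5 FPKM, against 121 to 126 FPKM in the others), so results that rest on it are given with and without it. In whole tissue, fewer cells of a type and less RNA per cell cannot be told apart.

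Cd74, H2-Aa, H2-Ab1 and H2-Eb1 were abundant in the uterus, with their highest group means in PRB oil. Cd74, the invariant chain, was measured at 151, 166, 160 and 160 FPKM in PRB P4, against 172, 179, 182 and 219 FPKM in PRB oil. In PRA it stood at 136, 120, 145 and 133 FPKM with P4, against 143, 141, 153 and 165 FPKM with oil. All PRB P4 values lay below all PRB oil values, whereas the P4 and oil values of PRA overlapped. By mean over the 16 libraries Cd74 ranked 429 among all features.

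H2-Aa, the alpha chain of the class II molecule I-A, followed the same pattern at a slightly lower level. Its values were 132, 130, 136 and 130 FPKM in PRB P4, against 143, 160, 152 and 180 FPKM in PRB oil. They were 118, 104, 123 and 111 FPKM in PRA P4, against 131, 115, 131 and 135 FPKM in PRA oil. Again the 2 PRB groups did not overlap and the 2 PRA groups did.

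H2-Ab1, the beta chain that pairs with H2-Aa, had 139, 147, 150 and 154 FPKM in PRB P4, against 155, 178, 166 and 199 FPKM in PRB oil. In PRA it had 126, 104, 140 and 114 FPKM with P4, against 135, 111, 135 and 152 FPKM with oil. The highest PRB P4 value and the lowest PRB oil value were close to each other but did not cross. H2-Eb1, the beta chain of the second class II molecule I-E, had 79.7, 86.1, 86.0 and 79.8 FPKM in PRB P4, against 95.8, 99.4, 94.8 and 116 FPKM in PRB oil. It had 70.1, 64.4, 78.9 and 68.0 FPKM in PRA P4, against 76.6, 70.9, 79.5 and 88.7 FPKM in PRA oil, and only the PRB groups were apart. The partner of H2-Eb1, listed as H2-Ea-ps and annotated as a polymorphic pseudogene, was at 0 in all 16 libraries.

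H2-DMa, a chain of the peptide exchange factor, was far less abundant than the classical chains. It had 7.27, 7.91, 10.2 and 8.35 FPKM in PRB P4, against 8.01, 9.98, 8.77 and 10.7 FPKM in PRB oil. It had 7.65, 5.95, 7.92 and 5.89 FPKM in PRA P4, against 7.98, 6.10, 9.20 and 8.32 FPKM in PRA oil. The P4 and oil values overlapped in both strains. Ciita, the coactivator, had 2.26, 2.45, 3.11 and 2.74 FPKM in PRB P4, against 2.78, 3.53, 2.53 and 3.61 FPKM in PRB oil. It had 2.11, 1.91, 2.42 and 2.02 FPKM in PRA P4, against 2.45, 2.03, 2.55 and 2.21 FPKM in PRA oil, with overlap in both strains.

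**Figure D1:**
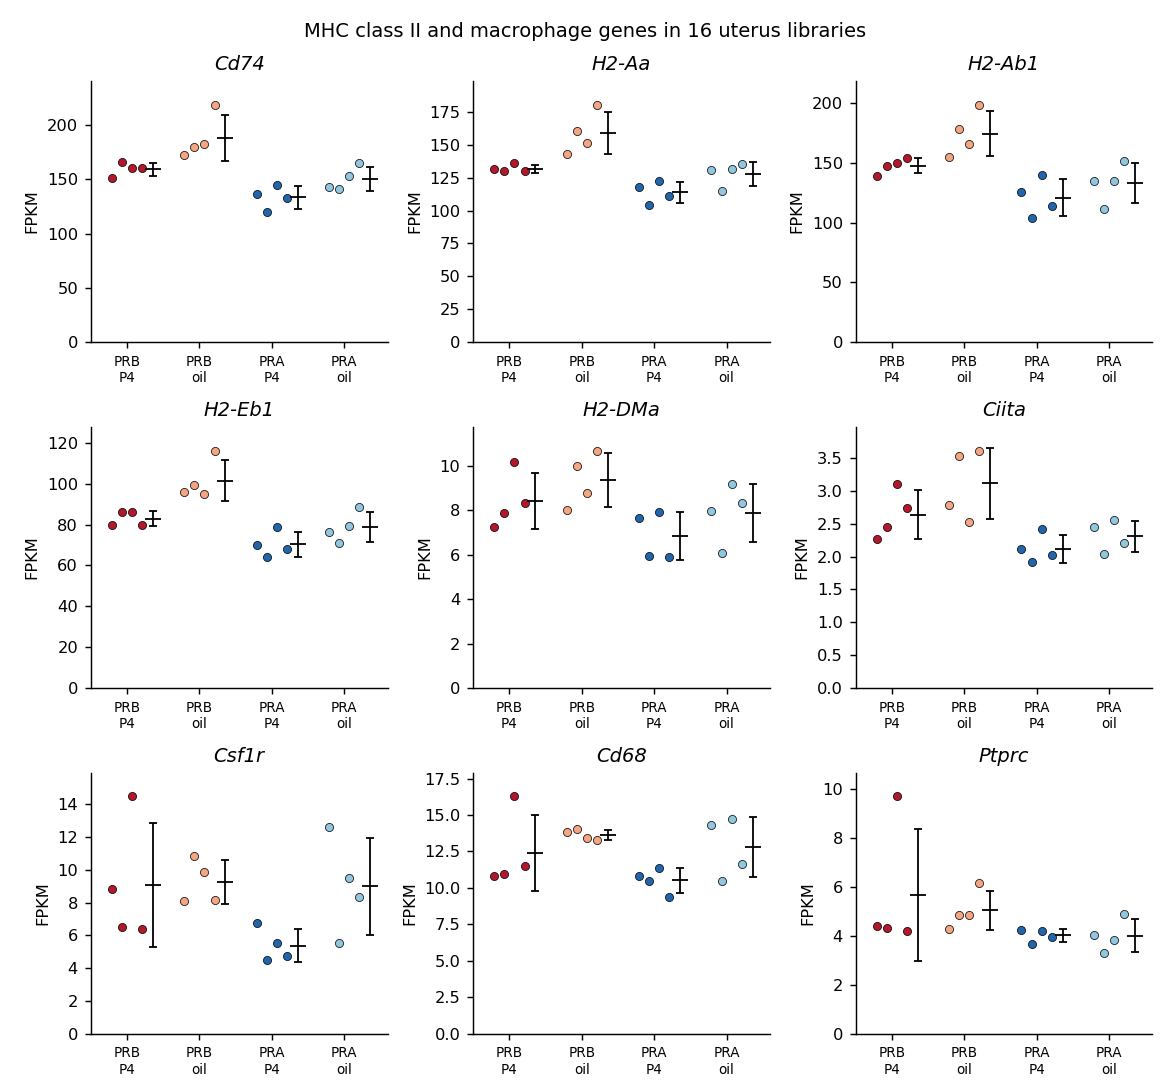
FPKM of each gene (vertical axes, each starting at 0) in the 4 libraries of each group (points, replicates 1 to 4 in order), with mean and SD beside them. Cd74, H2-Aa, H2-Ab1 and H2-Eb1 are highest in PRB oil, and PRB P4 replicate 3 stands out in Csf1r (14.5 FPKM), Cd68 (16.3 FPKM) and Ptprc (9.71 FPKM) but not in those 4 genes.

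The 4 H2 genes lie within 197.1 kb of the MHC region on chromosome 17 (mm10, 34119541 to 34316674). H2-DMa spans 34119541 to 34139101 on the plus strand, H2-Ab1 34257689 to 34269419 on the plus strand, H2-Aa 34282744 to 34287823 on the minus strand and H2-Eb1 34305867 to 34316674 on the plus strand. Promoter sequences are shown for H2-Aa and H2-Eb1, because these genes moved together and a class II promoter is known to carry an X box, bound by the RFX complex through which Ciita acts, and a Y box, bound by NF-Y. Each runs 250 bases before to 50 bases after the RefSeq start (GRCm38.p6), 5′ to 3′ on the strand of the gene. The capitals mark GCAACT, a core of the X box, and ATTGG, the Y box read on this strand.

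H2-Aa promoter, chr17:34287774-34288073, minus strand: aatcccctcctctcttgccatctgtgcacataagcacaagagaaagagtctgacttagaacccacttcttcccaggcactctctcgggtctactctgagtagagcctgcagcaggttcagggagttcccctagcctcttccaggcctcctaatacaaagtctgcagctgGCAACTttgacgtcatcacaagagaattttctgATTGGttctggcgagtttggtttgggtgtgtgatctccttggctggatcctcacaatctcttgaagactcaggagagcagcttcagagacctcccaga
H2-Eb1 promoter, chr17:34305617-34305916, plus strand: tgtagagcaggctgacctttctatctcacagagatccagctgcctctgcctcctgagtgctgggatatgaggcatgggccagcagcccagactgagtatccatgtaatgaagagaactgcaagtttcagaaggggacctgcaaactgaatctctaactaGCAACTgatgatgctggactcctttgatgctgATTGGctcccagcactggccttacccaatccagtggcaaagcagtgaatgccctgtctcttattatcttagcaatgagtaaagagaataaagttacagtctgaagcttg

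In H2-Aa the GCAACT core began 81 bases and ATTGG 48 bases before the start, with 27 bases between them. In H2-Eb1 the figures were 91, 59 and 26 bases. This pair was searched on the strand of the gene only, with 15 to 35 bases between its parts. It was chosen after the promoters of H2-Aa and H2-Eb1 had been read, so that their matches are a description. It was present in 35 of 32851 promoters of the same length (0.107%), and of the listed genes H2-Eb2, a further class II beta chain, also held it.

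Motifs were searched in the 5 promoters matched by symbol among the 9 genes (H2-Aa, H2-Eb1, H2-DMa, Cd68 and Ptprc), on both strands. The Y box letters CCAAT were found in H2-Aa, H2-Eb1, H2-DMa and Cd68, and in 37.4% of all promoters. A fuller X box, CTAGNNACA, was found in Ptprc and in none of the other 4 (3.69% of all promoters). GAGGAA, a core bound by the myeloid factor PU.1, was found in Cd68 and Ptprc (28.3% of all promoters), and AGAACA, a half-site of the progesterone response element, in Ptprc (19.0% of all promoters). The gamma-activated site TTCNNNGAA was in none of the 5 windows (8.30% of all promoters).

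The next comparison asked how the class II genes and the macrophage genes had responded to P4 in PRB. Differences are given as P4 minus oil on the log2(FPKM + 1) scale, with the standard error (SE) from a limma fit over all 16 libraries, and a gene is called where the p adjusted over 15408 tested features was under 0.05. Cd74 fell by 0.23 (SE 0.077, adjusted p = 0.0144), H2-Aa fell by 0.26 (SE 0.072, adjusted p = 0.00436) and H2-Eb1 fell by 0.29 (SE 0.080, adjusted p = 0.00515). On this scale their P4 levels were 0.851, 0.833 and 0.820 of the oil levels. The size depended on scale: with quantile normalization of the libraries the same 3 differences were -0.51, -0.55 and -0.58. The Cd74 call was lost without PRB oil replicate 4 (adjusted p = 0.0502), and the calls of H2-Aa and H2-Eb1 passed the threshold under all 24 other settings. H2-Ab1 differed by -0.23 (SE 0.10) with an adjusted p of 0.0547 and was not called. These 3 of 9 genes called lower stand beside 32.9% of all tested features called lower and 36.2% called higher, 69.1% in all, so the share of called genes among the 9 was near the background for decreases. The 4 genes whose PRB groups did not overlap, each of them lower with P4, stand beside 28.5% of all features that were lower and 32.6% that were higher without overlap.

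The remaining 5 genes were not called in PRB. H2-DMa differed by -0.14 (SE 0.13, adjusted p = 0.364) and Ciita by -0.17 (SE 0.10, adjusted p = 0.148). Csf1r differed by -0.088 (SE 0.24, adjusted p = 0.757), Cd68 by -0.15 (SE 0.12, adjusted p = 0.289) and Ptprc by 0.073 (SE 0.19, adjusted p = 0.7501). The median over the 5 class II genes other than Ciita was -0.23, over Csf1r, Cd68 and Ptprc -0.088, and over all tested features 0. Without PRB P4 replicate 3 the 3 class II calls held (adjusted p from 0.00619 to 0.0249), Cd68 was called at -0.28 (adjusted p = 0.0192), Csf1r stood at -0.32 (adjusted p = 0.187), and Ptprc changed sign to -0.18 (adjusted p = 0.153).

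The same question was put to PRA. H2-Aa fell by 0.17 (SE 0.072, adjusted p = 0.0484) and Csf1r fell by 0.61 (SE 0.24, adjusted p = 0.0327), while the other 7 genes were not called. Cd74 differed by -0.17 (SE 0.077, adjusted p = 0.0576), H2-Ab1 by -0.14 (SE 0.10, adjusted p = 0.245), H2-Eb1 by -0.16 (SE 0.080, adjusted p = 0.0813) and Cd68 by -0.25 (SE 0.12, adjusted p = 0.0732). The 2 of 9 genes called lower stand beside 33.2% of all features called lower, 36.6% called higher and 69.8% called in all. No gene of the 9 had PRA groups that did not overlap, against 31.2% of all features that were lower without overlap. The median over the 5 class II genes was -0.17, against 0.013 over all features.

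The H2-Aa call in PRA lay close to the threshold and was lost under 15 of 24 other settings, with adjusted p between 0.000224 and 0.149. The Csf1r call was lost under 6 of them, 5 of which left out 1 library of PRA P4 or PRA oil. PRB P4 replicate 3 enters the PRA response only through the shared spread. Without it Cd68 was called lower in PRA (-0.25, adjusted p = 0.0195) and H2-Aa was not called (adjusted p = 0.0523). With quantile normalization Cd74 stood at -0.44 in PRA, and 4 of the 9 genes were called in PRA, as were 4 with median-ratio scaling. Quantile normalization turned Ciita to 0.070 in PRB and 0.13 in PRA, and Csf1r to 0.024 in PRB, none of them called.

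Csf1r, Cd68 and Ptprc were less abundant than the class II chains other than H2-DMa. Csf1r had 8.84, 6.51, 14.5 and 6.39 FPKM in PRB P4, against 8.10, 10.9, 9.89 and 8.17 FPKM in PRB oil. In PRA it had 6.75, 4.52, 5.51 and 4.73 FPKM with P4, against 12.6, 5.51, 9.51 and 8.32 FPKM with oil. The PRA oil libraries were widely spread, and their lowest value lay within the range of PRA P4.

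Cd68 had 10.8, 10.98, 16.3 and 11.5 FPKM in PRB P4, against 13.9, 14.0, 13.4 and 13.3 FPKM in PRB oil. It had 10.8, 10.5, 11.4 and 9.40 FPKM in PRA P4, against 14.3, 10.5, 14.7 and 11.7 FPKM in PRA oil. In PRB all libraries with P4 other than replicate 3 were below all oil libraries. Ptprc had 4.42, 4.31, 9.71 and 4.21 FPKM in PRB P4, against 4.30, 4.87, 4.88 and 6.18 FPKM in PRB oil. It had 4.26, 3.68, 4.19 and 3.96 FPKM in PRA P4, against 4.04, 3.31, 3.85 and 4.89 FPKM in PRA oil, so the P4 and oil ranges overlapped in both strains.

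The strains were then set against each other within each treatment, as PRB minus PRA. With P4, Cd74 was called higher in PRB by 0.26 (SE 0.077, adjusted p = 0.0363), 1 of 9 genes, beside 7.75% of all tested features called higher, 8.29% called lower and 16% called in all. H2-Aa (0.21, adjusted p = 0.0579), H2-Eb1 (0.24, adjusted p = 0.0572) and H2-Ab1 (0.29, adjusted p = 0.0657) were not called. The PRB P4 values of Cd74, H2-Aa and H2-Eb1 lay above all PRA P4 values, beside 9.23% of all features. The Cd74 call was lost under 8 of 24 other settings (adjusted p between 0.0153 and 0.113), 6 of which left out 1 library of PRB P4 or PRA P4. Csf1r differed by 0.60 (SE 0.24, adjusted p = 0.102), Ptprc by 0.34 (SE 0.19, adjusted p = 0.250) and Cd68 by 0.20 (SE 0.12, adjusted p = 0.269). Without PRB P4 replicate 3 no gene of the 9 was called, with Cd74 at 0.25 (adjusted p = 0.0575), and Csf1r, Ptprc and Cd68 stood at 0.37, 0.083 and 0.074.

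With oil, 0 of the 9 genes were called by limma, beside 0.117% of all features called in either direction and 0.0389% called higher (18 features in all, and 802 at an unadjusted p under 0.05). The differences were nevertheless as large as with P4: 0.32 for Cd74 (SE 0.077, adjusted p = 0.252), 0.31 for H2-Aa (SE 0.072, adjusted p = 0.211), 0.39 for H2-Ab1 (SE 0.10, adjusted p = 0.316) and 0.36 for H2-Eb1 (SE 0.080, adjusted p = 0.163). All PRB oil values of these 4 genes lay above all PRA oil values, beside 1.25% of all features that were higher and 2.14% that were lower in PRB without overlap. These 4 genes and Ciita (0.31, adjusted p = 0.626) had an unadjusted p under 0.05. Csf1r differed by 0.078, Cd68 by 0.098 and Ptprc by 0.27, each with an adjusted p of 1.

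All 9 genes lay above 0 in both strain comparisons (Csf1r with oil stood at -0.11 without PRA oil replicate 2), with medians of 0.26 with P4 and 0.31 with oil, against medians over all features of -0.013 and -0.015. The 2 comparisons use different libraries. A contrast averaged over both treatments was added after these values had been seen. In it Cd74 (0.29, adjusted p = 0.00667), H2-Aa (0.26, adjusted p = 0.00782), H2-Ab1 (0.34, adjusted p = 0.0119), H2-Eb1 (0.30, adjusted p = 0.00653) and Ciita (0.26, adjusted p = 0.0402) were called higher in PRB, 5 of 9 genes beside 3.89% of all features called higher and 8.15% called in either direction. The first 4 calls held under all 23 other settings, while the call of Ciita was lost under 13 of 22. Strain cannot be told apart from row of library position or from litter here.

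**Figure D2:**
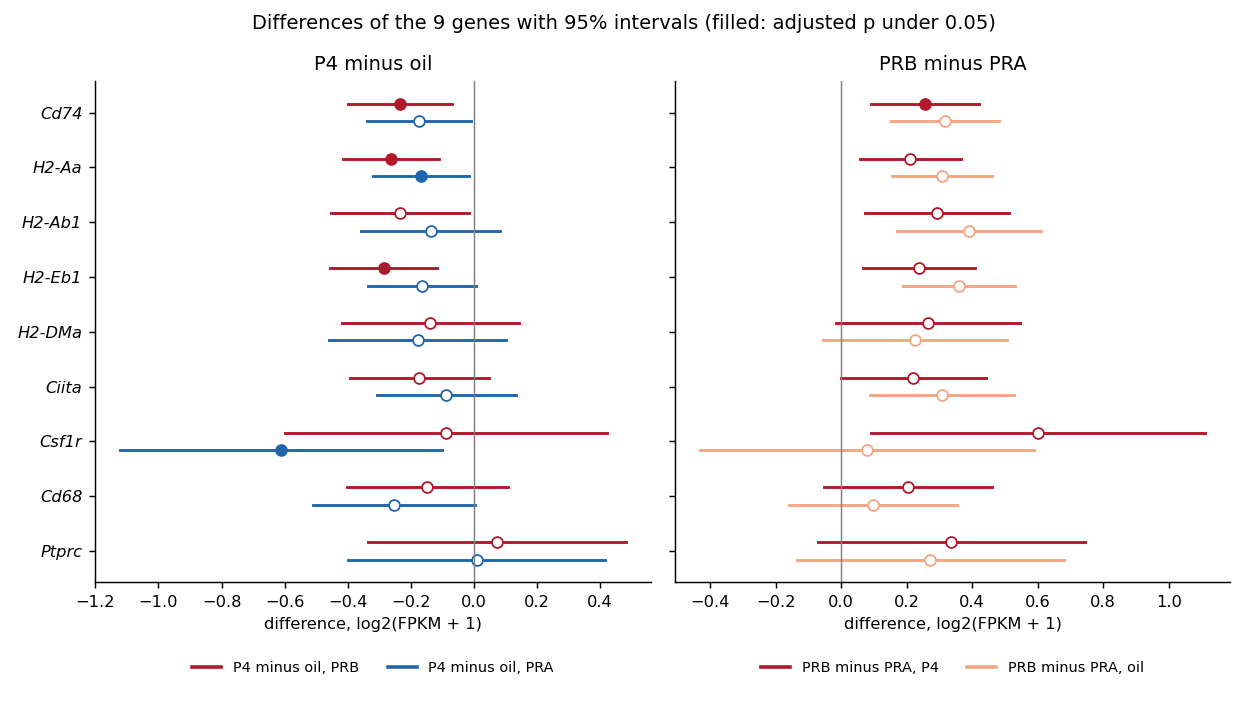
Differences on the log2(FPKM + 1) scale (horizontal axes) with 95% intervals for each gene, P4 minus oil in PRB and PRA (left) and PRB minus PRA with P4 and with oil (right); filled points have an adjusted p under 0.05. All 9 genes lie right of 0 in both strain comparisons, and 8 of 9, Ptprc being the exception, lie left of 0 in both P4 responses. With quantile normalization Ciita in both strains and Csf1r in PRB turned above 0. Csf1r in PRB also turned above 0 without PRB P4 replicate 2 (0.029) or replicate 4 (0.037).

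The difference between the P4 responses of the strains was tested as an interaction, PRB minus PRA. None of the 9 genes was called by limma and none had an unadjusted p under 0.05, beside 2.28% of all features called and 2538 at an unadjusted p under 0.05. For H2-Aa the difference was -0.095 (95% interval -0.31 to 0.12) and for Cd74 -0.060 (-0.29 to 0.17). For Csf1r, which was called in PRA and not in PRB, it was 0.52 (-0.20 to 1.24, adjusted p = 0.478), so the data do not show that the responses of Csf1r differed, and without PRB P4 replicate 3 it was 0.29 (adjusted p = 0.628). A second contrast added after the values were seen, the P4 response averaged over strains, called Cd74 (-0.20, adjusted p = 0.00330), H2-Aa (-0.22, adjusted p = 0.00123), H2-Ab1 (-0.19, adjusted p = 0.0298), H2-Eb1 (-0.22, adjusted p = 0.00205) and Cd68 (-0.20, adjusted p = 0.0431) lower. These 5 of 9 stand beside 37.2% of all features called lower, 39.8% called higher and 77% called in all. The calls of Cd74, H2-Aa and H2-Eb1 held under all 23 other settings, while that of H2-Ab1 was lost under 5 and that of Cd68 under 14. Without PRB P4 replicate 3 the averaged response of Cd68 was -0.26 (adjusted p = 0.00196). Csf1r, not called with all libraries, stood there at -0.465 (adjusted p = 0.00809), and Ptprc at -0.086 (adjusted p = 0.298).

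The order of the group means was PRB oil, PRB P4, PRA oil and PRA P4, from high to low, for 7 of the 9 genes (Cd74, H2-Aa, H2-Ab1, H2-Eb1, H2-DMa, Ciita and Csf1r). For Cd68 PRA oil stood second, and for Ptprc PRB P4 stood first and PRA oil last. For Cd74, H2-Aa, H2-Ab1 and H2-Eb1 the step between PRB oil and PRB P4 was free of overlap. PRB P4 and PRA oil overlapped in all 9 genes, and PRA oil and PRA P4 overlapped in the 8 genes that had them as neighbours in this order. For Ptprc PRB oil, which stood second, lay above PRA P4 without overlap. Without PRB P4 replicate 3 the means of H2-DMa and Csf1r in PRB P4 (7.84 and 7.24 FPKM) lay below those in PRA oil (7.90 and 8.99 FPKM), and Ptprc averaged 4.32 FPKM in PRB P4 and 5.06 FPKM in PRB oil, so the order held for 5 of the 9 genes.

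Cd74, H2-Aa, H2-Ab1 and H2-Eb1 kept closer proportions to each other than H2-DMa did to H2-Aa. The 5 class II genes summed to 530 ± 14.7 FPKM in PRB P4, 632 ± 65.3 FPKM in PRB oil, 445 ± 40.6 FPKM in PRA P4 and 498 ± 43.4 FPKM in PRA oil (SD, n = 4 each), and the highest of the 16 libraries had 1.82 times the lowest. Cd74 over H2-Aa lay between 1.09 and 1.28 in all 16 libraries, H2-Ab1 over H2-Aa between 0.970 and 1.19, and H2-Eb1 over H2-Aa between 0.584 and 0.669. The highest ratio was thus 1.17, 1.22 and 1.14 times the lowest, against 1.41 times for H2-DMa over H2-Aa (0.0532 to 0.0749) and 2.62 times for Csf1r over Ptprc.

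**Figure D3:**
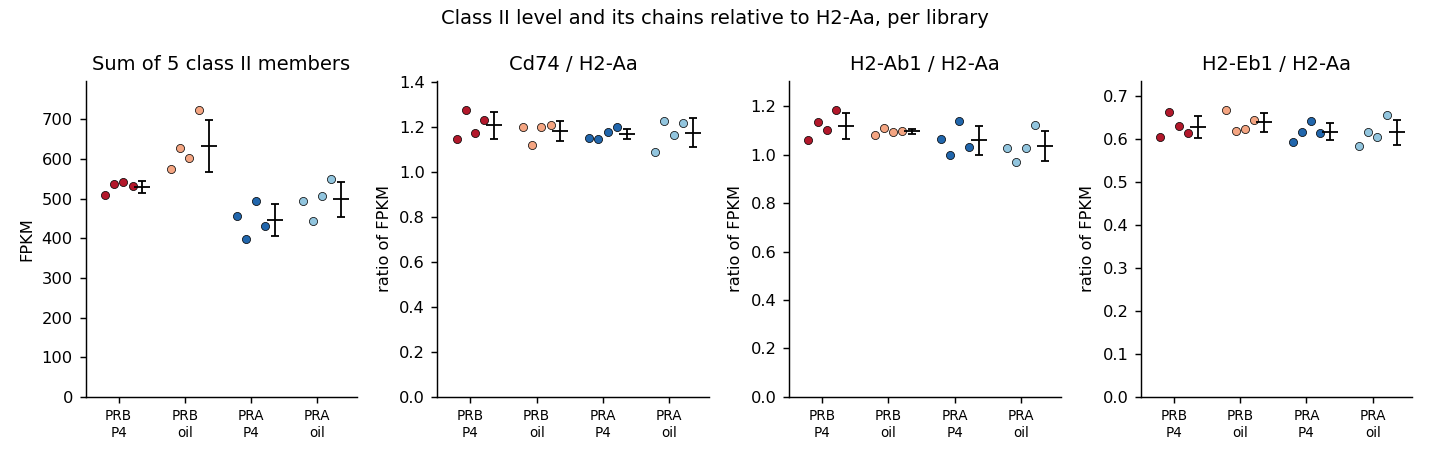
Sum of Cd74, H2-Aa, H2-Ab1, H2-Eb1 and H2-DMa in FPKM (left) and the FPKM of Cd74, H2-Ab1 and H2-Eb1 divided by that of H2-Aa (right panels), per library, with mean and SD of each group. The sum ranges up to 1.82-fold over the libraries, whereas the ratios range up to 1.17-fold, 1.22-fold and 1.14-fold.

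Deviations of the libraries from their group means were compared between genes as a description, over 16 libraries that share groups and normalization. Between class II genes Pearson's r was 0.65 to 0.93 with a median of 0.85 over 10 pairs. Among Csf1r, Cd68 and Ptprc it was 0.66 to 0.82 over 3 pairs, and 0.32 to 0.73 without PRB P4 replicate 3. Between a class II gene and one of these 3 genes it was 0.011 to 0.72, with a median of 0.42 over 15 pairs. By median, class II genes thus varied more closely with each other than with these 3 genes, though the ranges overlapped. H2-DMa stood at 0.63 with Csf1r, 0.72 with Cd68 and 0.67 with Ptprc. Without PRB P4 replicate 3 the medians were 0.87 and 0.44, and the second range was -0.0015 to 0.73. There Ptprc stood at 0.65 with Cd74, 0.73 with H2-Aa, 0.66 with H2-Ab1 and 0.70 with H2-Eb1.

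**Figure D4:**
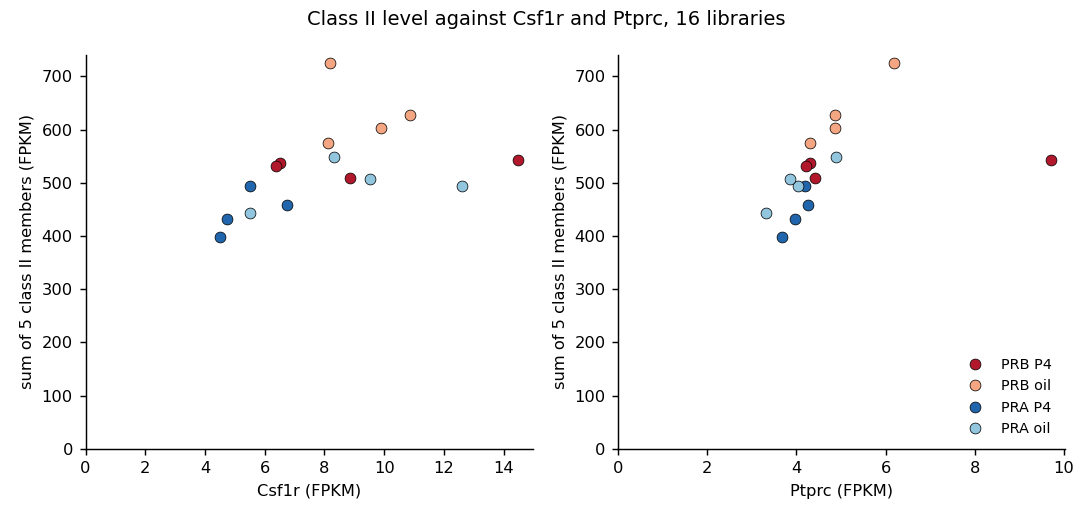
Summed FPKM of the 5 class II genes (vertical axis) against the FPKM of Csf1r (left) and Ptprc (right), 1 point per library, coloured by group. PRB P4 replicate 3 lies far to the right (Csf1r 14.5 FPKM, Ptprc 9.71 FPKM) at a class II sum of 542 FPKM, close to the 509 to 537 FPKM of the other PRB P4 libraries.

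Of the 5 features most like the class II average in these deviations, out of 15399 compared, 4 are given here: Itgb7, an integrin beta chain of leukocytes (Pearson's r = 0.88, Spearman's coefficient 0.77), Arhgap9, a GTPase-activating protein (0.84 and 0.87), H2-DMb2 (0.84 and 0.80) and Tgfb1, a growth factor (0.83 and 0.76). Those most like the average of Csf1r, Cd68 and Ptprc were C1qc, a chain of complement C1q (Pearson's r = 0.97, Spearman's coefficient 0.94), the Fc receptor-like gene Fcrls (0.96 and 0.95), an unnamed transcript, Tubb2b, a beta tubulin (0.95 and 0.92), and C1qa (0.95 and 0.86). Without PRB P4 replicate 3 C1qc stood at r = 0.93 and Itgb7 at r = 0.87. These features were picked for their likeness, and no test was made.

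PRB P4 replicate 3 had the highest summed FPKM of macrophage markers and of pan-leukocyte genes, with no such excess of class II RNA. Other libraries had higher sums of dendritic cell, B cell and neutrophil markers. Its sums of epithelial markers (1368 FPKM), class II lysosomal processing genes (1328 FPKM) and eosinophil and mast cell markers (365 FPKM) were also the highest of the 16 libraries. Over the 22 tested macrophage markers its level was 0.912 to 7.83 times the mean of the other 3 PRB P4 libraries, with a median of 2.23. It had the highest value of the 16 libraries in 17 of 22 tested macrophage markers and in all 10 pan-leukocyte genes, against 12.1% of all tested features. Its level was 7.83 times the mean of the other 3 PRB P4 libraries for Emr1, the gene of the macrophage marker F4/80, 4.87 times for the integrin Itgam, and 2.33 to 2.51 times for the complement genes C1qa, C1qb and C1qc. Spi1, which encodes PU.1, stood at 2.71 times and Ctss, the cathepsin that trims the invariant chain, at 2.54 times. The 5 class II genes stood at 1.01 to 1.30 times, with H2-DMa the highest. The median over all tested features was 0.984, and the median over 6 smooth muscle markers was 0.742.

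Listed genes of the machinery around class II changed with P4 in different directions. Whole-uterus values do not show in which cells they changed. Earlier results of these data were known when the lists were written, so counts of list members are a description. In all tested features 36.2% were called higher and 32.9% lower in PRB and 36.6% and 33.2% in PRA, which is the background for each list below. Of 6 accessory chains and exchange factors, 4 were tested and none was called in either P4 response. H2-DMb1, the other H2-DM chain, averaged 11.5 ± 1.03 FPKM in PRB P4, 13.2 ± 1.09 FPKM in PRB oil, 10.3 ± 1.01 FPKM in PRA P4 and 11.3 ± 1.47 FPKM in PRA oil (SD, n = 4 each). H2-DMb2, a near copy with which it may share reads, was called higher in PRB than in PRA with P4 (0.37, adjusted p = 0.0451). Without PRB P4 replicate 3 that call was lost, while H2-DMb1 and H2-Ob, a chain of the inhibitor of H2-DM, were called lower in PRB. The median over the 4 genes was -0.19 in PRB and -0.11 in PRA, and 0.23 and 0.28 between the strains with P4 and with oil.

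Among 6 genes of lysosomal processing, 2 rose and 1 fell in PRB, and 1 rose and 1 fell in PRA. Ctsd, the aspartic protease cathepsin D, rose by 1.78 in PRB (adjusted p = 3.76e-09) and by 1.95 in PRA (adjusted p = 1.75e-09), with 820 ± 130 FPKM in PRB P4, 237 ± 28.5 FPKM in PRB oil, 888 ± 89.1 FPKM in PRA P4 and 228 ± 7.54 FPKM in PRA oil (SD, n = 4 each). Ctsl, cathepsin L, rose in PRB by 0.34 (adjusted p = 0.000534) and stood at -0.028 in PRA; with quantile normalization the PRB value was 0.065 (adjusted p = 0.426). Ifi30, the thiol reductase of antigen processing, fell in PRB by 0.27 (adjusted p = 0.0472), a call lost without PRB P4 replicate 3, among 14 of 24 settings. Lgmn, an asparaginyl endopeptidase, fell in PRA by 0.27 (adjusted p = 0.0104).

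Of 7 genes of the complex that holds Ciita at the promoter, 2 rose and 1 fell in PRB and 4 rose and 1 fell in PRA. Rfx5, the DNA-binding subunit of RFX, fell by 0.43 in PRB (SE 0.044, adjusted p = 5.71e-07) and by 0.26 in PRA (SE 0.044, adjusted p = 1.00e-04), and its P4 and oil groups did not overlap in either strain. Its level was 14.0 ± 0.796 FPKM in PRB P4, 19.3 ± 0.508 FPKM in PRB oil, 15.7 ± 0.378 FPKM in PRA P4 and 18.9 ± 0.690 FPKM in PRA oil (SD, n = 4 each). Rfxank, a partner subunit, rose by 0.29 in PRB (adjusted p = 0.00152) and by 0.16 in PRA (adjusted p = 0.0445), the PRA call being lost under 12 of 24 other settings (adjusted p up to 0.162). Nfyc, an NF-Y subunit, rose by 0.26 and 0.13 (adjusted p = 9.87e-05 and 0.0166), though with quantile normalization the PRB value was 0.077 (adjusted p = 0.119) and the PRA value turned to -0.015.

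Of 8 genes of interferon gamma signalling 7 were tested, and 3 rose and 2 fell in each strain. Irf1, a transcription factor that activates Ciita, fell by 0.73 in PRB (SE 0.091, adjusted p = 4.49e-06) and by 0.86 in PRA (SE 0.091, adjusted p = 9.02e-07), with 26.0 ± 3.36 FPKM in PRB P4, 43.8 ± 5.07 FPKM in PRB oil, 22.8 ± 1.32 FPKM in PRA P4 and 42.0 ± 2.42 FPKM in PRA oil (SD, n = 4 each). Socs1, an inhibitor of the pathway, rose by 0.48 in PRB (adjusted p = 0.00924) and by 0.84 in PRA (adjusted p = 0.000131). The kinase Jak1 rose by 0.38 and 0.59, and the receptor chain Ifngr2 by 0.39 and 0.22, in PRB and in PRA. These calls held under all 24 other settings, except Ifngr2 in PRA, which was lost under 1.

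The class I pathway, which shares the MHC region and interferon control with class II, had 5 of 10 genes lower and none higher in PRB, and 3 lower and 1 higher in PRA. Psmb9, an immunoproteasome subunit, fell by 0.99 in PRB (adjusted p = 3.08e-05) and by 0.42 in PRA (adjusted p = 0.0203, and 0.0724 without PRA oil replicate 4). Tap2, a chain of the peptide transporter, fell by 0.56 in PRB (adjusted p = 1.99e-06) and by 0.47 in PRA (adjusted p = 1.04e-05). Tap1, the other chain, fell in PRB by 0.82 (adjusted p = 0.000375) and differed by -0.25 in PRA (adjusted p = 0.174). Psmb8, a second immunoproteasome subunit, fell in PRB by 0.54 (adjusted p = 0.00715) and differed by 0.046 in PRA (adjusted p = 0.811). The ends of Psmb9 and Tap1 overlap on opposite strands and the counting is not stated to use strand, so reads there may be shared.

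Around Csf1r, its ligand Csf1 rose by 0.49 in PRB (SE 0.095, adjusted p = 0.000345) and by 0.38 in PRA (SE 0.095, adjusted p = 0.00229). Csf1 averaged 17.9 ± 1.58 FPKM in PRB P4, 12.5 ± 1.30 FPKM in PRB oil, 17.2 ± 2.27 FPKM in PRA P4 and 12.95 ± 1.05 FPKM in PRA oil (SD, n = 4 each), and P4 and oil did not overlap in either strain. Irf8, a factor of myeloid differentiation, fell by 0.34 in PRB (adjusted p = 0.00732) and by 0.36 in PRA (adjusted p = 0.00570, and 0.0570 with quantile normalization). Csf2ra, the GM-CSF receptor chain, fell in PRA by 0.33 (adjusted p = 0.0137). Of the 7 tested genes of this list 1 rose and 1 fell in PRB, and 1 rose and 2 fell in PRA.

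Of 24 macrophage markers 22 were tested, and 1 rose and 1 fell in each strain. Cd14, the lipopolysaccharide co-receptor, rose by 0.82 in PRB (adjusted p = 4.00e-05) and by 0.54 in PRA (adjusted p = 0.00152). Ccr2, a chemokine receptor of monocytes, fell in PRB by 0.31 (adjusted p = 0.0170), and Folr2, a folate receptor of resident macrophages, fell in PRA by 0.82 (adjusted p = 0.0179). The calls of Ccr2 and Folr2 were lost with quantile normalization (adjusted p = 0.0776 and 0.0630), that of Ccr2 also without PRB P4 replicate 4, and that of Folr2 also without PRA P4 replicate 2 or PRA oil replicate 1. The median over the 22 was 0.16 in PRB and -0.043 in PRA, and 0.41 and 0.19 between the strains with P4 and with oil. Without PRB P4 replicate 3, 4 markers were lower and 1 higher in PRB and 2 lower and 1 higher in PRA, with medians of -0.091 and -0.043, and the strain median with P4 was 0.14. The summed level of the 24 markers was 400 to 934 FPKM in PRB P4, 421 to 448 FPKM in PRB oil, 353 to 425 FPKM in PRA P4 and 290 to 421 FPKM in PRA oil, and was 400 to 450 FPKM in PRB P4 without replicate 3. None of the 24 markers was at 0 in all libraries.

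**Figure D5:**
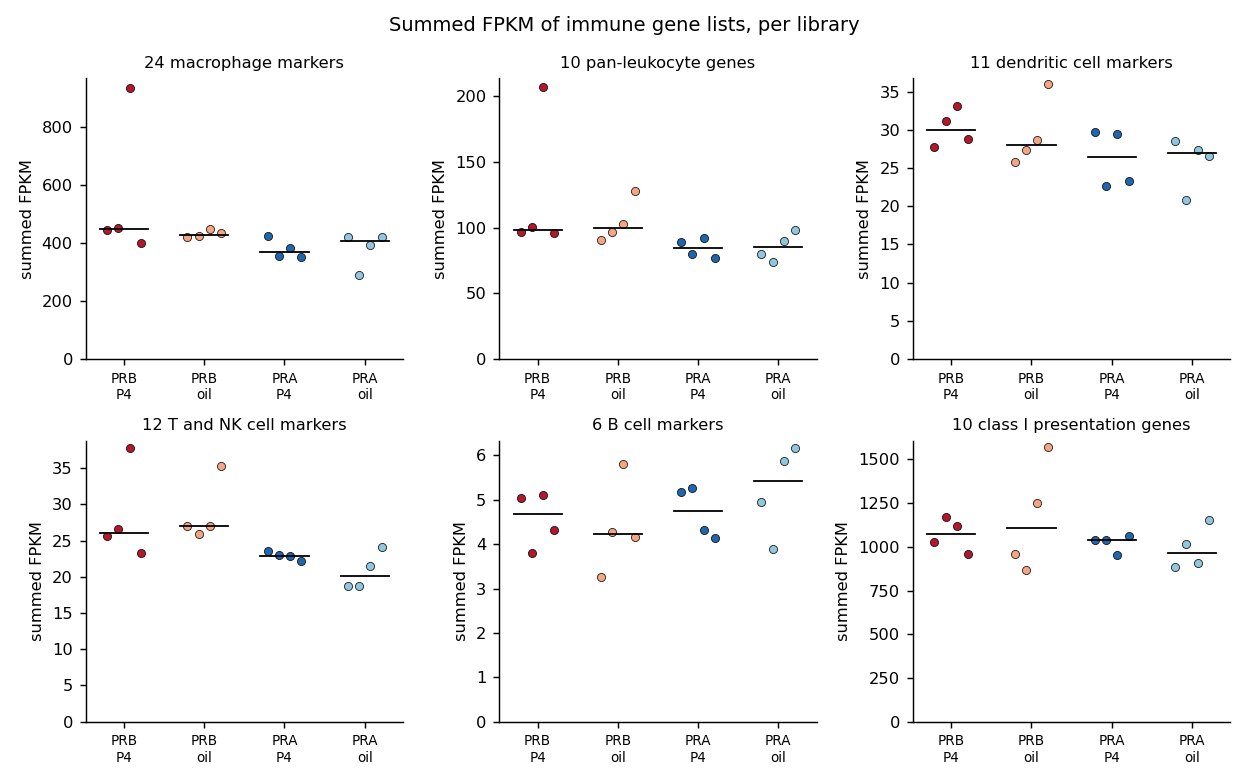
Summed FPKM of 6 gene lists (vertical axes, each starting at 0) in each library, with the group median as a line. PRB P4 replicate 3 stands out in the macrophage markers (934 FPKM) and pan-leukocyte genes (207 FPKM) and has the highest sum of T and NK cell markers (37.8 FPKM). Of the 8 tested T and NK cell markers, Klrb1c, Nkg7, Gzmb and Ncr1 stood at 1.96 to 2.18 times the mean of the other PRB P4 libraries. The remaining ones, Cd3g, Cd3e, Gzma and Lck, stood at 0.61 to 0.92 times.

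Markers of dendritic cells and B cells, which are also known to carry class II, were partly below the filter. Of 11 dendritic cell markers 7 were tested, with 1 higher and 1 lower in PRB and 1 lower in PRA. Clec9a, of cross-presenting dendritic cells, fell by 0.36 in PRB (adjusted p = 0.0221) and by 0.43 in PRA (adjusted p = 0.00902), and Batf3, a transcription factor of these cells, rose in PRB by 0.49 (adjusted p = 0.0322), a call lost under 5 of 23 other settings, one of them without PRB P4 replicate 3. The Clec9a call was lost under 5 of 23 settings in PRB and under 1 in PRA, quantile normalization in both. Of 6 B cell markers only Cd79a and Cd79b passed the filter and neither was called, and the 6 summed to 3.80 to 5.11 FPKM in PRB P4, 3.25 to 5.81 FPKM in PRB oil, 4.13 to 5.27 FPKM in PRA P4 and 3.90 to 6.18 FPKM in PRA oil. Of 12 T and NK cell markers 8 were tested, with none called in PRB, and in PRA the T cell kinase Lck higher (0.69, adjusted p = 0.000167) and Gzma lower (-0.38, adjusted p = 0.0291, lost under 6 of 23 other settings). In PRB minus PRA with P4, 2 of the 8 were called higher and 1 lower, beside 7.75% and 8.29% of all features.

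Of 10 pan-leukocyte genes none was called in PRB and 1 fell in PRA, the tetraspanin Cd37 (-0.44, adjusted p = 0.0229, lost under 4 of 23 other settings). All 10 lay above 0 in both strain comparisons without any being called, with medians of 0.39 with P4 and 0.20 with oil, against -0.013 and -0.015 over all features. The median with P4 was 0.10 over the 9 genes still tested when PRB P4 replicate 3 was left out. Their sum was 95.9 to 207 FPKM in PRB P4, 90.6 to 128 FPKM in PRB oil, 76.6 to 92.1 FPKM in PRA P4 and 74.2 to 98.1 FPKM in PRA oil, and 95.9 to 100.1 FPKM in PRB P4 without replicate 3. In the strain contrast averaged over treatments 3 of 8 tested T and NK cell markers were called higher, beside 3.89% of all features. So were 2 of 4 tested accessory chains and exchange factors, and no macrophage marker or pan-leukocyte gene. Without PRB P4 replicate 3 this contrast called 753 of 15394 features higher. Among them were 3 T and NK, 1 accessory, 3 macrophage and 1 pan-leukocyte gene. The part of leukocyte content in the class II differences between strains was not tested.

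Mast cell proteases and the histamine enzyme moved apart. Hdc, which makes histamine, rose by 2.99 in PRB (adjusted p = 3.08e-05) and by 3.59 in PRA (adjusted p = 4.93e-06). In PRA the mast cell proteases Cma1 (-1.03, adjusted p = 0.000199), Tpsb2 (-1.02, adjusted p = 0.000958) and Mcpt4 (-0.97, adjusted p = 0.00615) fell. In PRB Cma1 fell by 0.45 (adjusted p = 0.0492), while Tpsb2 (-0.50, adjusted p = 0.0588) and Mcpt4 (-0.43, adjusted p = 0.188) were not called. Of this list of 10, 5 genes were tested, with 1 higher and 2 lower in PRB and 1 higher and 4 lower in PRA. The Cma1 call in PRB was lost under 15 of 24 other settings (adjusted p up to 0.247). S100a8, the 1 neutrophil marker of 7 that passed the filter, rose by 1.02 in PRB (adjusted p = 0.000678) and by 1.40 in PRA (adjusted p = 4.22e-05).

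Markers of the main uterine tissues moved with P4 as well. The 6 epithelial markers summed to 1126 to 1368 FPKM in PRB P4, 734 to 787 FPKM in PRB oil, 858 to 1085 FPKM in PRA P4 and 692 to 787 FPKM in PRA oil, with 2 higher in PRB, and 2 higher and 2 lower in PRA. The 6 stromal markers summed to 658 to 751 FPKM in PRB P4, 1044 to 1122 FPKM in PRB oil, 584 to 769 FPKM in PRA P4 and 931 to 1043 FPKM in PRA oil, with 1 higher and 3 lower in PRB and 2 higher and 3 lower in PRA. Smooth muscle markers had 1 higher and 1 lower in PRB and 2 higher in PRA, endothelial markers 1 lower in PRB and 3 lower in PRA, and red cell and adipose markers none called. Between the strains with P4, 3 of 6 endothelial markers were called higher in PRB, beside 7.75% of all features. Within the epithelial sums Cldn3 averaged 589 FPKM in PRB P4, 179 in PRB oil, 379 in PRA P4 and 158.5 in PRA oil. Within the stromal sums Dcn averaged 336, 608, 290 and 573 FPKM and Lum 31.6, 137, 38.9 and 127 FPKM, in the same order. Sums weigh the most abundant genes most and do not measure amounts of tissue. The part of these marker shifts in the class II and macrophage differences was not tested.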

How the data were processed

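Whole-uterus RNA-seq values of 16 libraries were used as FPKM, the deposited unit. The submitters' processing notes name TopHat2 2.0.4, Cufflinks 2.0.2 and Cuffdiff, with mm10 as the genome build. What annotation, strandedness or scaling across libraries was used is not given in the sources used here. Those of the 31274 features whose mean reached 1 FPKM (15408) were tested on the log2(FPKM + 1) scale, which understates changes of low genes, with limma 3.58.1 in R 4.3.3. One model held a mean for each of 4 groups, with an intensity trend, two-sided tests and Benjamini-Hochberg adjustment over all tested features, and was tested on simulated data. The report's contrasts were fitted together, and 2 averaged contrasts were added after the values were seen. P-values measure the spread between libraries labelled as bioreplicates. Alternatives were a pseudocount of 0.1, other filters, quantile and median-ratio scaling, a replicate block, no trend, the libraries of a contrast alone, and leaving out each library. Gene positions are from GENCODE vM21 and promoters from RefSeq. The text names the 9 genes, Pgr, up to 4 called members of each of 18 lists (otherwise the 2 most expressed), 5 genes most like each average (1 of which is not reported here), H2-Ea-ps and H2-Eb2 as partners, and, after their values were seen, the genes highest in PRB P4 replicate 3. The 9 genes and the lists were chosen with earlier results of these data known. Ly6g and Hba-a1 were not found by symbol, and Adgre1 was matched as Emr1 and Siglecf as Siglec5.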

Additional observations from a re-analysis of the deposited data

Results flagged for a closer look

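There were 2 values that stood far from the other 3 libraries of their group, both in PRB P4 replicate 3. Ptprc was at 9.71 FPKM there, against 4.21 to 4.42 FPKM in the other 3 libraries, and the gap made up 0.963 of the range of the group. Cd68 was at 16.3 FPKM, against 10.8 to 11.5 FPKM, with a gap of 0.873 of the range. In all, 36 groups of 4 libraries were examined, and chance flags about 1 in 20. No gene of the 9 had P4 responses that differed between the strains past the threshold.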

How the results depend on the processing

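Of 1471 values of the 9 genes under other settings, 1344 kept direction and side of the threshold, 62 lost and 41 gained a call, and 24 changed sign. In the P4 response in PRA the members called were 2, and 1 with no filter, 4 with quantile normalization, 4 with median-ratio scaling, 4 with the replicate block, 1 when only that contrast's libraries were fitted and 1 with no trend. In PRB minus PRA with P4 it was 1, and 0 with no filter, 0 with quantile normalization, 3 with median-ratio scaling and 2 when only its own libraries were fitted, where 1640 features in all were called against 2471. In PRB minus PRA with oil, 33 features were called with no filter and 6 when only its own libraries were fitted, against 18. The share of higher among called features moved there with quantile normalization (10 higher and 13 lower, against 6 and 12) and, with median-ratio scaling, in the averaged strain contrast (749 higher and 492 lower, against 599 and 656). Leaving out 1 library gave 2 to 4 members called in PRB, 0 to 5 in PRA, 0 to 4 between strains with P4, 0 with oil, 0 for the difference, 3 to 7 for the averaged P4 response and 4 to 5 for the averaged strain difference. The features called lay between 10180 and 10663, 10186 and 11111, 1412 and 2612, 8 and 29, 155 and 494, 11634 and 12007, and 787 and 1546 in the same order.

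Signs turned with quantile normalization for Ciita (0.070 in PRB, 0.13 in PRA, 0.098 averaged), Csf1r in PRB (0.024), Nfyc in PRA (-0.015) and the H2-DMa difference of responses (-0.00615), and with median-ratio scaling for Ptprc in PRA (-0.016). None of the new values was called, and the cause was not tested. When 1 library was left out, signs turned for Csf1r in PRB (-0.32 to 0.037) and between strains with oil (-0.11 to 0.24), for Ptprc in PRB (-0.18 to 0.17), in PRA (-0.062 to 0.088) and averaged (-0.086 to 0.088), and for the difference of responses of Cd74 (-0.11 to 0.014), H2-DMa (-0.045 to 0.15), Cd68 (-0.024 to 0.19) and Ptprc (-0.19 to 0.16). The Cd74 call in PRB was lost without PRB oil replicate 4 (adjusted p = 0.0502). Replicate numbers are shared by the groups but did not pair the libraries: the correlation of deviations over 24 same-numbered pairs had a median of 0.032 and exceeded 0.1 in 6. With the block 4 members were called in PRB. Ciita and Ptprc were below the filter of 5 FPKM and were not tested there. Depth is known only as implied by the spacing of values.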
